A study of Mus musculus with 12 samples.

Results

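The genes described here are 10 macrophage and complement genes, chosen by name from the 13016 genes of the expression table: the C1q chains C1qa, C1qb and C1qc, the complement protease C2, the macrophage surface receptor Emr1 (now named Adgre1), the transcription factor Spic, and the lysosomal and secreted products Cd68, Apoe, Lyz2 and Ctsb. All 10 were found in the table. They were measured in early thymic precursors, the earliest T-lineage cells of the mouse thymus, in 12 libraries of full-length messenger RNA made from 100 sorted cells each. The 4 dKO_Flt3ITD libraries came from mice with floxed Ezh2 and Runx1 alleles, the Rag1Cre recombinase and a heterozygous internal tandem duplication in the receptor gene Flt3. The 4 dKO libraries carried the floxed alleles and Rag1Cre without the Flt3 duplication. The 4 control libraries carried the same floxed alleles, and their labels name no recombinase. All mice were C57BL/6, and their age is not given in the labels. Ezh2 is the catalytic subunit of a repressive histone methyltransferase complex, Runx1 is a transcription factor of blood cell development, and Rag1Cre acts in cells that have switched on Rag1, a lymphoid gene. No group carried the Flt3 duplication without the deletions, so a difference between dKO_Flt3ITD and control joins both changes.

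C1q is a secreted recognition protein built from the A, B and C chains. It starts the classical complement pathway on antibody, apoptotic cells and pathogens, after which C2 is cleaved to give the protease of the classical C3 convertase. Tissue macrophages are a main source of C1q, and in the thymus macrophages clear the thymocytes that die during selection. Emr1 is the classical surface marker of mouse macrophages, Spic is an ETS factor needed for the iron-recycling macrophages of the mouse spleen, Cd68 is a glycoprotein of macrophage endosomes and lysosomes, Apoe carries lipids out of cells, Lyz2 is the lysozyme of myeloid cells, and Ctsb is a lysosomal cysteine protease found in most cells.

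Values are given in RPKM, a read count per length of transcript and per size of library, and the whole reads recovered from them totalled 12924981 to 32763597 per library. All 15 listed early thymic progenitor genes were in the table, and Kit, the stem cell factor receptor, lay at 39.5 to 78.8 RPKM in dKO_Flt3ITD libraries, 38.2 to 68.3 RPKM in dKO libraries and 44.7 to 69.9 RPKM in control libraries. Ezh2 lay at 12 to 24.6 RPKM in dKO_Flt3ITD libraries, 16.9 to 29.8 RPKM in dKO libraries and 32.8 to 45.7 RPKM in control libraries. Runx1 lay at 32.6 to 58.8 RPKM in dKO_Flt3ITD libraries, 35.9 to 58.2 RPKM in dKO libraries and 16.3 to 25.3 RPKM in control libraries. Runx1 was thus higher in the libraries labelled as deleted, and a whole-gene value does not show whether the floxed exons were lost. The libraries differed in the sum of all RPKM, which was highest in dKO_Flt3ITD 1 at 1071041, followed by dKO 1 at 829421, and lowest in control 1 at 515638. Control 1 also stood furthest from the rest, with a mean correlation of 0.786 over the tested genes.

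Over the 12 libraries the mean level was highest for Lyz2 at 137 RPKM, followed by Ctsb at 46.6, Apoe at 24.7, Spic at 15.5, Cd68 at 12.5, C1qb at 12.3, Emr1 at 7.77, C1qc at 1.90, C1qa at 1.51 and C2 at 1.08 RPKM. RPKM is per length, so this order compares genes, but it differed by group. Spic averaged 28.3 RPKM in dKO_Flt3ITD and 15.6 RPKM in dKO, above C1qb at 4.85 RPKM in dKO_Flt3ITD but not above C1qb at 18.8 RPKM in dKO, and in control, at 2.77 RPKM, it lay below C1qb at 13.4, Apoe at 9.53 and Cd68 at 7.95 RPKM. Neighbours such as Spic, Cd68 and C1qb differed in mean by far less than each varied between libraries. Ctsb, Lyz2 and Cd68 were at 1 RPKM or more in all 12 libraries, Apoe in 11, Spic in 9, C1qb in 8, Emr1 in 6, and C1qa, C1qc and C2 in 4 each. In bulk RNA of 100 cells, fewer cells of a type and less RNA per cell cannot be told apart.

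The 3 C1q genes lie side by side on mouse chromosome 4, all on the minus strand of GRCm38, with C1qb at chr4:136880129-136886187, C1qc at chr4:136889804-136893065 and C1qa at chr4:136895917-136898803. Spic lies at chr10:88674772-88685015 on the minus strand. The others are Cd68 at chr11:69664213-69666153, Apoe at chr7:19696109-19699188 and Lyz2 at chr10:117277331-117282321 on the minus strand, and Ctsb at chr14:63122462-63145923 on the plus strand. The RefSeq promoter table (GRCm38.p6) held upstream sequence for 6 of the 10 genes: C1qb, C1qc, Spic, Cd68, Apoe and Lyz2. The 250 bases upstream of the RefSeq start are shown for C1qb and C1qc, neighbours within the cluster. Their levels had an r of 0.56 over the 12 libraries. The same window is shown for Spic, called only between dKO_Flt3ITD and control, a call that held in 7 of 21 alternative settings. Capitals mark GAGGAA on either strand, the core motif bound by the ETS factors PU.1 and Spi-C. The intervals are chr4:136886201-136886450 for C1qb, chr4:136892915-136893164 for C1qc and chr10:88683024-88683273 for Spic, all on the minus strand and written 5′ to 3′ along the gene. The RefSeq start used lies 151 bases inside the GENCODE gene for C1qc and 1992 bases inside it for Spic.
C1qb: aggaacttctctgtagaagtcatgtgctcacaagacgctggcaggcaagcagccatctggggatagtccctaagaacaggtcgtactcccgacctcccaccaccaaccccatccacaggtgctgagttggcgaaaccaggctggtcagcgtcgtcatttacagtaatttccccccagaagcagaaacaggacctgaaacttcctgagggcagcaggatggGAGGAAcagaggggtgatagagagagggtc
C1qc: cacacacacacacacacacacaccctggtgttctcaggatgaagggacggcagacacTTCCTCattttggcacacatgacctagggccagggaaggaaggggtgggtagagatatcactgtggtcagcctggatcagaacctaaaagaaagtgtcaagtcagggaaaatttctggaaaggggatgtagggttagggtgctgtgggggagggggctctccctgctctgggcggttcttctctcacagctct
Spic: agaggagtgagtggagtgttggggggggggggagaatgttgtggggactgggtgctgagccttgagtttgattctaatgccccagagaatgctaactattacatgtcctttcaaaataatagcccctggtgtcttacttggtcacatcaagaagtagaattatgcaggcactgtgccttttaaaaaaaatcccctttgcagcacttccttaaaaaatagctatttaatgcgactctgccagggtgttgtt
In C1qb the match lies on the gene's strand at positions -30 to -25, counted from the start, and in C1qc on the other strand at positions -193 to -188. The Spic window holds no match. Of all 32851 start windows in the table, 23.3% hold the motif on 1 strand or the other, so a match is common, and it describes the letters only. On the gene's strand, Cd68 has a match beginning at position -225, the first of the 3 listed Apoe starts at -250 and the third at -132, and Lyz2 has none.

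The 3 C1q chains differed in level and in the libraries that held them, and C1qb was the main chain in most. C1qb measured 0.207, 0, 11.6 and 7.57 RPKM in dKO_Flt3ITD libraries 1 to 4, against 39.1, 0.804, 21.1 and 14.3 RPKM in dKO and 22.8, 0.709, 13.1 and 16.9 RPKM in control. C1qb was therefore present in 3 of 4 control libraries at more than 10 RPKM, and the groups overlapped. C1qa measured 4.65, 0, 5.95 and 0.152 RPKM in dKO_Flt3ITD libraries, against 4.59, 0.121, 0.164 and 2.18 RPKM in dKO and 0, 0.278, 0 and 0 RPKM in control. C1qa was high in 2 libraries of each deleted group, and the others of those groups were as low as control. C1qc measured 0, 0, 0.307 and 2.54 RPKM in dKO_Flt3ITD libraries, against 9.66, 0.685, 6.08 and 0.458 RPKM in dKO and 0.035, 0, 3.04 and 0 RPKM in control. Its 2 highest libraries were dKO 1 and dKO 3, and control 3 lay above 2 of the 4 dKO libraries.

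**Figure D1:**
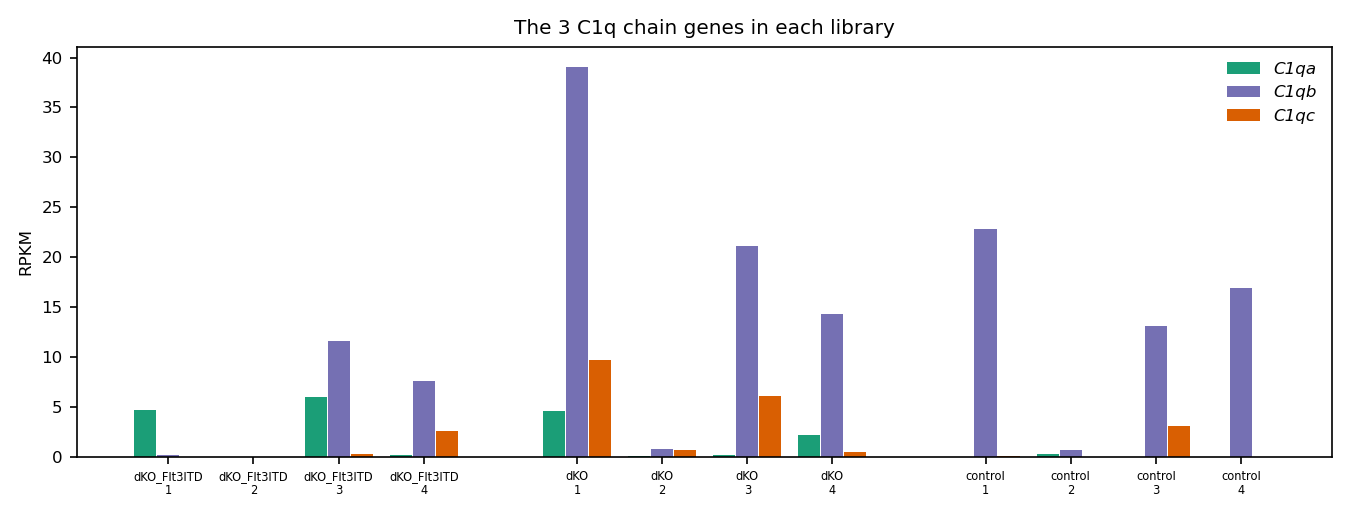
RPKM of C1qa, C1qb and C1qc (bars, axis from 0) in each of the 12 libraries, by group. C1qb reaches 39.1 RPKM in dKO 1 and 22.8 RPKM in control 1, while C1qa reaches 5.95 RPKM at most, in dKO_Flt3ITD 3, and dKO_Flt3ITD 2 has none of the 3.

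Only dKO 1 had all 3 chains at 1 RPKM or more, 5 libraries had 2 of them, 3 had 1, and 3 had none. In the controls C1qb alone made up 99.8%, 71.8%, 81.2% and 100% of the summed C1q RPKM. In dKO_Flt3ITD 1, by contrast, it made up 4.27% of it, with C1qa as the main chain. C1qa of control 2, the only control library where it was above 0, rested on 6 reads. None of the 3 chains passed the test in any comparison. The limma difference in mean log2(RPKM + 1) between dKO_Flt3ITD and control was 1.29 (SE 0.67, adjusted p 0.426) for C1qa, -1.57 (SE 1.04, adjusted p 0.545) for C1qb and 0.04 (SE 0.70, adjusted p 0.991) for C1qc. Between dKO and control it was 1.05 (SE 0.67, adjusted p 0.746) for C1qa, 0.31 (SE 1.04, adjusted p 0.978) for C1qb and 1.37 (SE 0.70, adjusted p 0.619) for C1qc. Between dKO and control the C1qb difference was -0.54 without control 2 and -0.25 without dKO 1, and that of C1qc between dKO_Flt3ITD and control was -0.39 without dKO_Flt3ITD 4.

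C2 (chr17:34862604-34898265, minus strand) was read in all 4 dKO_Flt3ITD libraries and in no control library. It measured 4.62, 1.79, 2.94 and 3.27 RPKM in dKO_Flt3ITD libraries, against 0, 0, 0.348 and 0 RPKM in dKO and 0 RPKM in each of the 4 controls. Every dKO_Flt3ITD library lay above every dKO and every control library. The values rested on 333, 88, 192 and 210 reads in dKO_Flt3ITD, against 26 reads in dKO 3 and none elsewhere. A count of 0 allows up to 3 reads, or 0.0393 to 0.0569 RPKM of C2 per control library, which covers counting error only. Set against the highest of these limits, the dKO_Flt3ITD mean of 3.16 ± 1.17 RPKM (SD, n = 4) was at least 55.5-fold higher than control. On the log2(RPKM + 1) scale, which understates such a difference and is no bound, dKO_Flt3ITD was 2.01 above control (SE 0.40, limma adjusted p 0.0152). C2 passed the filter on low values only through its dKO_Flt3ITD libraries, so a difference was needed for it to be tested at all.

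The C2 call held without each of the 8 libraries of the comparison in turn (adjusted p 0.018 to 0.0495), but the filter was not redone in these fits. C2 reached 1 RPKM only in its 4 dKO_Flt3ITD libraries, so a redone filter would drop it without any 1 of them. The call was lost with only the 8 libraries compared (adjusted p 0.0539) and without control 1, dKO 1 and dKO_Flt3ITD 1 together (0.0784). Between dKO_Flt3ITD and dKO the C2 difference was 1.90 (SE 0.40, adjusted p 0.188), and it passed only with no filter (adjusted p 0.0229). C2 shares its locus with Zbtb12 on the opposite strand, at 0.0225 to 1.23 RPKM in dKO_Flt3ITD libraries, 0 to 0.429 RPKM in dKO libraries and 0 to 0.492 RPKM in control libraries. The strand setting of the counting is not given in the sources used here, and the part of Zbtb12 reads in the C2 values was not tested. C2 also overlaps Gm20547 on its own strand, which is not analysed here.

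Emr1 (Adgre1, chr17:57358691-57483527, plus strand) measured 31.8, 2.48, 2.5 and 43.4 RPKM in dKO_Flt3ITD libraries, against 0.480, 7.26, 5.22 and 0.0331 RPKM in dKO and 0.0341, 0, 0.0371 and 0 RPKM in control. All 4 dKO_Flt3ITD libraries lay above all 4 controls, whose values were 3 reads or none, while the dKO libraries spanned both ranges. The dKO_Flt3ITD mean was 20 ± 20.8 RPKM, against 3.25 ± 3.56 RPKM in dKO and 0.0178 ± 0.0206 RPKM in control (SD, n = 4 each). The difference from control was 3.50 on the log2(RPKM + 1) scale in dKO_Flt3ITD (SE 0.85, adjusted p 0.0481) and 1.55 in dKO (SE 0.85, adjusted p 0.657). Between dKO_Flt3ITD and dKO it was 1.95 (SE 0.85, adjusted p 0.612). Without any 1 of the 4 controls the adjusted p of the dKO_Flt3ITD call was 0.101 to 0.104, without dKO_Flt3ITD 1 it was 0.157 and without dKO_Flt3ITD 4 it was 0.102. The call of Emr1 held in 5 of 21 alternative settings, over which the adjusted p ran from 0.0246 to 0.213, and it was lost with no filter (0.114). Without its 4 dKO_Flt3ITD libraries Emr1 would not have passed the filter on low values, so, as for C2, it was tested only because it was high there.

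Spic measured 66.9, 12.9, 15.2 and 18.0 RPKM in dKO_Flt3ITD libraries, against 24.2, 2.23, 4.59 and 31.2 RPKM in dKO and 0, 0, 11.1 and 0.0274 RPKM in control. The dKO_Flt3ITD libraries again lay above all controls, by a small margin over control 3, and they overlapped the dKO libraries. Means were 28.3 ± 25.8 RPKM in dKO_Flt3ITD, 15.6 ± 14.4 RPKM in dKO and 2.77 ± 5.52 RPKM in control (SD, n = 4 each). The difference from control was 3.63 in dKO_Flt3ITD (SE 0.88, adjusted p 0.0478) and 2.55 in dKO (SE 0.88, adjusted p 0.269). Between dKO_Flt3ITD and dKO it was 1.08 (SE 0.88, adjusted p 0.819). The dKO_Flt3ITD call was lost without control 1 (adjusted p 0.120), control 2 (0.123), control 4 (0.128) or any 1 of the 4 dKO_Flt3ITD libraries (0.0676 to 0.161), and without control 3 the adjusted p was 0.00781. The call of Spic held in 7 of 21 alternative settings, up to an adjusted p of 0.211.

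**Figure D2:**
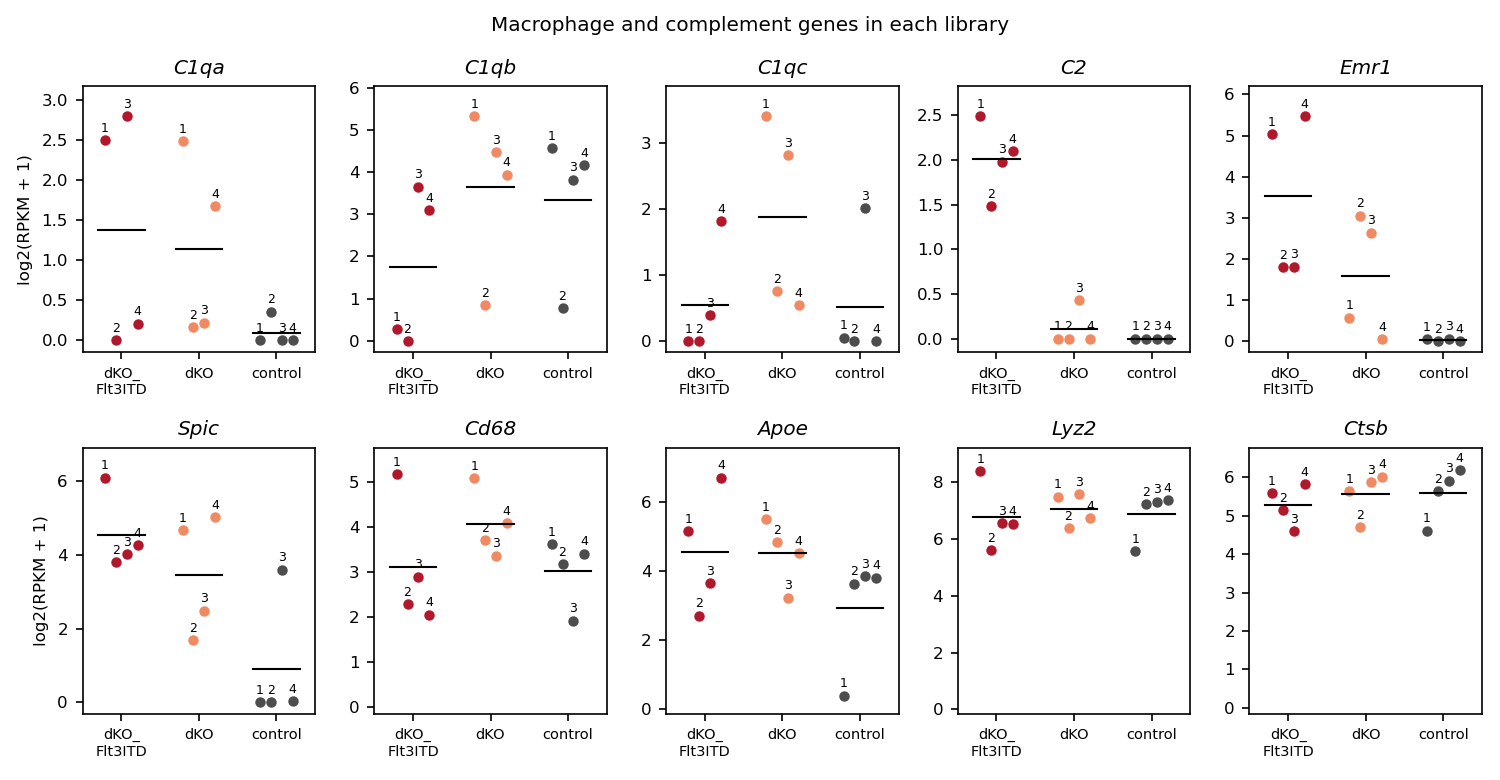
Level of each of the 10 genes as log2(RPKM + 1), 1 panel a gene, with 1 point a library numbered by replicate and a bar at the group mean. The 4 dKO_Flt3ITD points lie above all control points for C2, Emr1 and Spic, while the points of all groups overlap for Lyz2 and Ctsb.

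The macrophage and lysosome products were present in all groups. Cd68 measured 35.2, 3.89, 6.43 and 3.15 RPKM in dKO_Flt3ITD libraries, against 32.8, 12.1, 9.28 and 15.9 RPKM in dKO and 11.3, 8.06, 2.78 and 9.62 RPKM in control. Apart from dKO_Flt3ITD 1, the dKO_Flt3ITD libraries lay within the control range and below every dKO library. Apoe measured 34.7, 5.49, 11.6 and 104 RPKM in dKO_Flt3ITD libraries, against 44.5, 27.5, 8.35 and 21.9 RPKM in dKO and 0.295, 11.4, 13.4 and 13.0 RPKM in control. Control 1 stood low and dKO_Flt3ITD 4 high, and the groups overlapped. The Apoe difference was 1.64 for dKO_Flt3ITD against control (SE 0.85, adjusted p 0.418) and 1.61 for dKO against control (SE 0.85, adjusted p 0.639). For Cd68 it was 0.07 (SE 0.65, adjusted p 0.980) and 1.03 (SE 0.65, adjusted p 0.734) in the same comparisons, and the first of these was -0.19 when every library was scaled to the same sum.

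Lyz2 was the most abundant of the 10 genes, at 337, 47.6, 93.3 and 92.6 RPKM in dKO_Flt3ITD libraries, against 180, 82.9, 191 and 105 RPKM in dKO and 46.4, 150, 159 and 164 RPKM in control. Its group means of 143 ± 131 RPKM in dKO_Flt3ITD, 140 ± 53.9 RPKM in dKO and 130 ± 56.1 RPKM in control (SD, n = 4 each) differed by less than the spread within each group. Lyz2 has a near-identical neighbour, Lyz1, listed at 10.4 to 31.8 RPKM in dKO_Flt3ITD, 13.0 to 24.0 RPKM in dKO and 15.6 to 19.4 RPKM in control, so the split of reads between the pair is uncertain. Ctsb measured 47.3, 34.5, 23.3 and 55.3 RPKM in dKO_Flt3ITD libraries, against 48.6, 25.1, 57.4 and 63.9 RPKM in dKO and 23.4, 48.7, 59.4 and 72.2 RPKM in control. Its 12 libraries spanned 23.3 to 72.2 RPKM, and the groups overlapped throughout. Against control the Ctsb difference was -0.30 in dKO_Flt3ITD (SE 0.42, adjusted p 0.818) and -0.03 in dKO (SE 0.42, adjusted p 0.993), and the Lyz2 difference was -0.10 (SE 0.53, adjusted p 0.967) and 0.18 (SE 0.53, adjusted p 0.974). Leaving out single libraries turned the sign of all of these except Ctsb in dKO_Flt3ITD. The end of Ctsb overlaps Fdft1 on the opposite strand, listed at 4.50 to 19.8 RPKM in dKO_Flt3ITD, 2.16 to 54.0 RPKM in dKO and 0.283 to 17.3 RPKM in control.

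Read over the 10 genes, 3 passed the test between dKO_Flt3ITD and control, C2, Emr1 and Spic, all higher in dKO_Flt3ITD, where 0.992% of the 10690 tested genes were called higher. C2 and Emr1 reached the filter only through their dKO_Flt3ITD libraries, so their calls and this share say nothing about the 10 genes as a group. The same 3 genes had no overlap between these groups, against 4.16% of tested genes with every dKO_Flt3ITD library above every control library. For C2 the filter itself fixed this, as only its dKO_Flt3ITD libraries reached 1 RPKM. Between dKO and control none of the 10 was called in limma, where 0.786% of tested genes were called higher, and none had every dKO library above every control library, against 3.93% of tested genes. At an unadjusted p under 0.05 the count was 1 of 10 in that comparison, Spic (higher in dKO), against 9.18% of all tested genes, and voom on the recovered reads called none. Between dKO_Flt3ITD and dKO none of the 10 was called, and 0% of tested genes were called higher. There 2 of the 10 genes, C2 and Emr1, had an unadjusted p under 0.05, against 7.71% of all tested genes, and voom called none. C2 alone had no overlap, against 2.08% of tested genes with every dKO_Flt3ITD library above every dKO library. C2 and Emr1 were tested only through their dKO_Flt3ITD libraries, and for C2 the filter itself fixed the lack of overlap. Neither count says anything about the 10 genes as a group. The largest negative differences between dKO_Flt3ITD and dKO were -1.89 for C1qb (SE 1.04, adjusted p 0.705), -1.33 for C1qc (SE 0.70, adjusted p 0.688) and -0.96 for Cd68 (SE 0.65, adjusted p 0.782).

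The median difference of the 10 genes was 1.04 for dKO against control, with 9 of 10 above 0, against a median of 0.01 over all tested genes, of which 50.7% were above 0. It was 0.68 for dKO_Flt3ITD against control, with 7 of 10 above 0, against 0.00 and 50.1% over all tested genes. C2 and Emr1 are among these 7 and were tested only through their dKO_Flt3ITD libraries. C1qa, C2 and Emr1 reached 1 RPKM in no control library, and C1qc passed the filter only with 2 dKO libraries among those that reached it. The medians and counts of both comparisons with control therefore say nothing about a shift of the 10 genes as a group. Both medians stayed at these values with C2 set at its counting bound. They could not change, because C2 stayed on the same side of each median. Between dKO_Flt3ITD and dKO the median was -0.11, with 5 of 10 above 0, against 0.00 and 50.3%. The first 2 comparisons share the 4 control libraries, and C1qa was above 0 in only 1 of them. Of the genes called between dKO_Flt3ITD and control over the whole table, 106 were higher and 54 lower in dKO_Flt3ITD. With every library scaled to the same sum these were 84 and 84, with the median of all genes at -0.21.

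**Figure D3:**
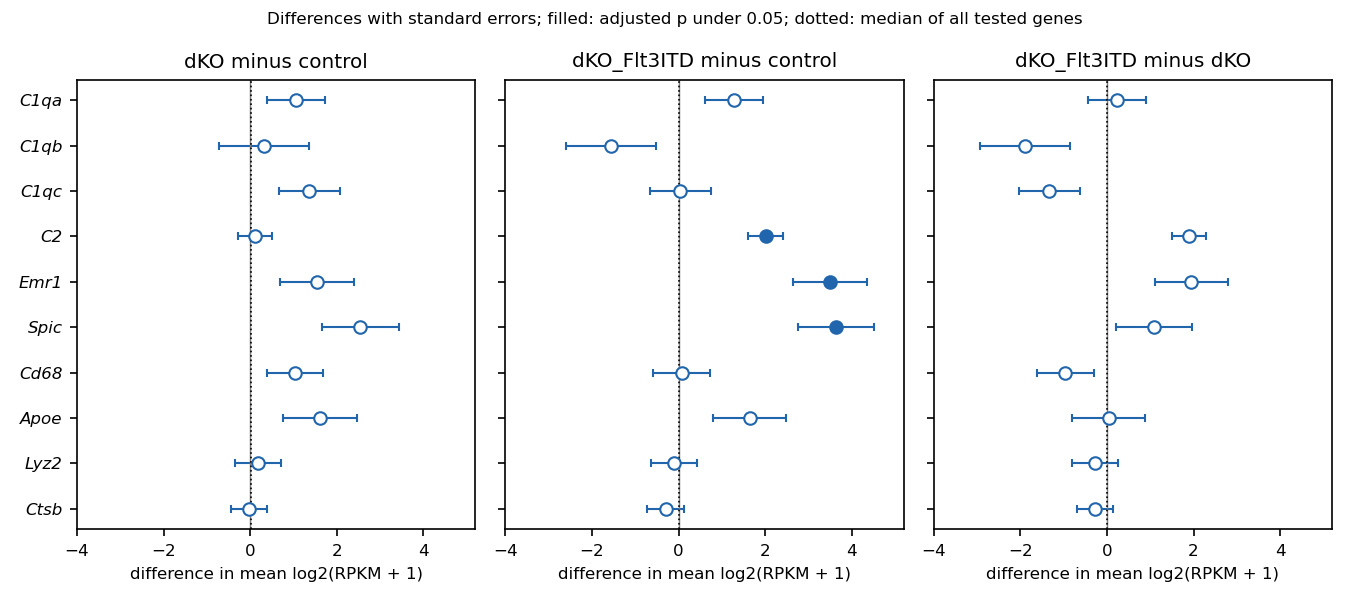
Difference in mean log2(RPKM + 1) with its standard error for the 10 genes in the 3 comparisons; filled points have a limma adjusted p under 0.05 and the dotted line is the median of all tested genes. C2 at 2.01, Emr1 at 3.50 and Spic at 3.63 are the filled points, all for dKO_Flt3ITD minus control.

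The number of the 10 genes at 1 RPKM or more was 8, 7, 9 and 9 in dKO_Flt3ITD libraries 1 to 4, against 8, 6, 8 and 7 in dKO and 4, 4, 7 and 5 in control. Control 3, with 7, was level with dKO_Flt3ITD 2 and above dKO 2. These counts use the level of the filter, which C1qa, C2 and Emr1 reached in no control library. The share of all genes at 1 RPKM or more in each library is not given here, and the libraries differed in reads. The counts therefore say nothing about the 10 genes as a group. High values were not spread evenly over the libraries. dKO_Flt3ITD 1 held the highest value of 4 genes (C2, Spic, Cd68 and Lyz2), dKO_Flt3ITD 4 of 2 (Emr1 and Apoe), dKO_Flt3ITD 3 of C1qa, dKO 1 of 2 (C1qb and C1qc) and control 4 of Ctsb. dKO_Flt3ITD 1 and dKO 1 were also the 2 libraries with the highest sum of all RPKM, and the part of that sum in these values was not tested. Without control 1, dKO 1 and dKO_Flt3ITD 1 together, none of the 10 genes was called in any comparison. Differences of dKO_Flt3ITD from control were then 1.85 for C2, 3.01 for Emr1 (adjusted p 0.184) and 2.81 for Spic (adjusted p 0.211).

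Across the 12 libraries the 10 genes correlated weakly on the log2(RPKM + 1) scale, as a description of libraries that share genotype and amplification. The median of the 45 pairs was an r of 0.22, 36 pairs were positive and 8 were over 0.5. The strongest pair was C2 and Emr1 at 0.78, and 0.66 after the group means were removed. Both genes were tested only through their dKO_Flt3ITD libraries, so the first value follows in part from the filter. C2 was above 0 in only 5 of the 12 libraries, which limits both values. C1qa and Spic followed at 0.65 (0.48 after removal of the group means), C1qa and Cd68 at 0.61 (0.68), Lyz2 and Ctsb at 0.61 (0.61), C2 and Spic at 0.59 (0.19), Spic and Apoe at 0.57 (0.36) and C1qb and C1qc at 0.56 (0.55). C1qa correlated with C1qb at 0.10 and with C1qc at 0.09, although the 3 genes are neighbours. The lowest r was -0.41, between C1qb and Emr1. The genes most like each were sought over the 12 libraries among tested genes, leaving out those with predicted-gene or clone symbols. Those most like Emr1 included Cd200r3 at 0.88 and Ecm1 at 0.87. The genes most like C2 were Sdhaf1 at 0.92 and Gng11 and Rgs14 at 0.91. For Spic they were Prdx5 at 0.93, Phf10 at 0.89 and Chtop at 0.88, and for C1qc Heatr5b at 0.90, Apoc1 at 0.88 and Zfp783 at 0.87. C1qb was most like Bbs12 at 0.93, C2cd3 at 0.88 and Acp5 at 0.86, and C1qa most like Ubxn1 at 0.87 and Rcor3 and Pfdn5 at 0.85. Apoe was most like Cradd and Mt1 at 0.90 and Krt18 at 0.89, Cd68 most like Tsen34 at 0.86 and Cyb5 and Dnmt1 at 0.84, Lyz2 most like Fam50a at 0.93, Emg1 at 0.92 and Nhp2l1 at 0.91, and Ctsb most like Zscan22 and Tmem59 at 0.93 and Trp53 at 0.92. None of the 10 genes was among the 3 genes most like another of them.

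**Figure D4:**
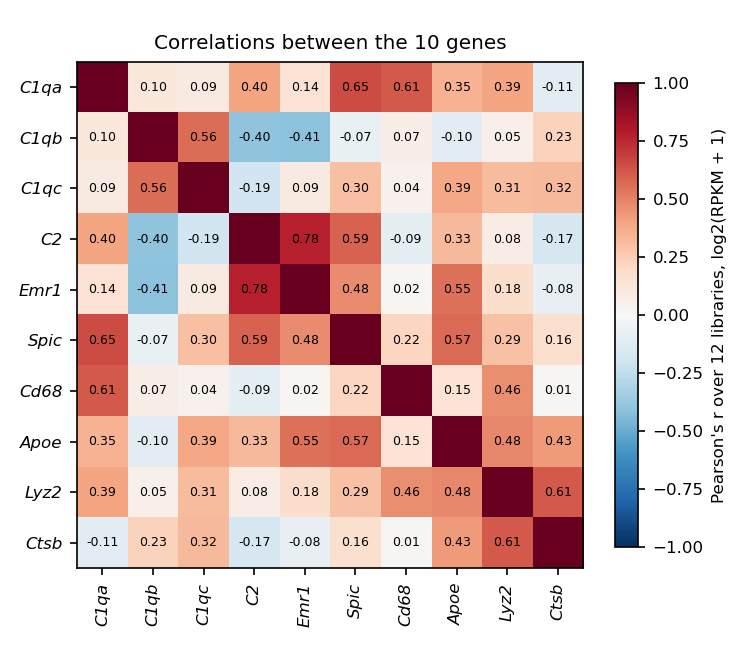
Pearson's r of log2(RPKM + 1) over the 12 libraries for each pair of the 10 genes, from blue (negative) to red (positive). C2 and Emr1 reach 0.78, while C1qb has an r of -0.40 with C2 and -0.41 with Emr1.

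The partners of these genes were looked up in lists of the same pathways. Of 12 listed genes of the C1 complex and classical pathway, 6 were in the table, and apart from the members C1ra and C3 remained. C3, the central complement component that the C2 protease cleaves, measured 0.229, 0, 0.00789 and 5.19 RPKM in dKO_Flt3ITD libraries, against 0, 0, 0.0207 and 0.136 RPKM in dKO and 0, 0, 0.148 and 0 RPKM in control. C1ra, a protease of the C1 complex, did not exceed 1.45 RPKM in any library. Both were too low to be tested. Properdin (Cfp), which stabilises the alternative convertase, measured 31.2, 4.29, 0.585 and 20.8 RPKM in dKO_Flt3ITD libraries, against 0.196, 0.258, 1.33 and 8.38 RPKM in dKO and 1.48, 0.198, 12.3 and 5.93 RPKM in control, with overlapping groups and an adjusted p of 0.673 for dKO_Flt3ITD against control.

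None of the 7 tested complement receptor genes was called in any comparison. Calreticulin (Calr), to which C1q binds on dying cells, averaged 235 ± 66.7 RPKM in dKO_Flt3ITD, 229 ± 70.0 RPKM in dKO and 179 ± 21.7 RPKM in control, and Cr1l, a membrane regulator of complement, averaged 95.8 ± 23.2 RPKM in dKO_Flt3ITD, 120 ± 27.3 RPKM in dKO and 90.6 ± 30.8 RPKM in control (SD, n = 4 each). The membrane inhibitors Cd55, Cd59a and Cd59b, all 3 tested members of their list, had positive differences from control in both deleted groups, with list medians of 0.88 in dKO_Flt3ITD and 1.41 in dKO, and none was called. Of all tested genes 50.1% were above 0 in dKO_Flt3ITD and 50.7% in dKO. Cd55 passed the filter only through libraries of the deleted groups, and Cd59b reached 1 RPKM in no control but control 3. Their shared direction therefore says nothing about the list. Cd59a averaged 17.9 ± 13.3 RPKM in dKO_Flt3ITD, 15.4 ± 4.68 RPKM in dKO and 7.14 ± 5.47 RPKM in control (SD, n = 4 each).

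Of 37 other macrophage genes 24 were in the table and 18 were tested, and 1 was called, Mrc1, the mannose receptor of tissue macrophages. Mrc1 measured 11.1, 3.80, 2.86 and 6.52 RPKM in dKO, against 0, 0.0283, 0.00754 and 0.00651 RPKM in control. Every dKO library lay above every control, with a difference of 2.66 (SE 0.52, adjusted p 0.0163), and the call was lost without dKO 1 (0.0585) or dKO 4 (0.0606) and with voom (0.125). Mrc1 reached the filter on low values only through its dKO libraries. In dKO_Flt3ITD libraries Mrc1 measured 0.0898, 2.89, 0.457 and 0.00775 RPKM, and its difference from control was 0.64 (SE 0.52, adjusted p 0.647). The difference of Mrc1 between dKO_Flt3ITD and dKO was -2.02 (adjusted p 0.261). Csf1r, the receptor for the macrophage growth factor, averaged 20.7 ± 9.53 RPKM in dKO_Flt3ITD, 23.1 ± 3.87 RPKM in dKO and 16.6 ± 16.1 RPKM in control, and Tyrobp, a myeloid and natural killer cell signalling adaptor, 724 ± 597 RPKM in dKO_Flt3ITD, 263 ± 260 RPKM in dKO and 549 ± 80.0 RPKM in control (SD, n = 4 each). The median difference of the 18 genes was -0.03 for dKO_Flt3ITD against control and 0.25 for dKO against control.

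The partners of Spic, Apoe and Ctsb showed 1 call. None of the 6 tested genes of iron and haem handling and none of the 13 of cholesterol efflux was called. Abcg1, which exports cholesterol to lipoproteins, averaged 104 ± 28.0 RPKM in dKO_Flt3ITD, 67.9 ± 23.6 RPKM in dKO and 97.3 ± 39.8 RPKM in control (SD, n = 4 each). The ferritin chains Fth1 and Ftl1, which store iron, averaged 1590 ± 991 and 2420 ± 1700 RPKM in dKO_Flt3ITD, 1820 ± 740 and 1950 ± 679 RPKM in dKO, and 1550 ± 133 and 1600 ± 438 RPKM in control (SD, n = 4 each). Vcam1, a target of Spic in mouse spleen macrophages, was listed at 0 in all 4 dKO_Flt3ITD libraries, and measured 1.90, 0, 0.177 and 3.62 RPKM in dKO and 0.369, 0, 2.34 and 0.0204 RPKM in control. Of 24 tested cathepsin and lysosome genes 1 was called, Ctsw, a cathepsin of cytotoxic lymphocytes, which was lower in both deleted groups. Ctsw measured 0, 1.52, 0 and 6.82 RPKM in dKO_Flt3ITD libraries, against 0.0486, 12.5, 0 and 0.261 RPKM in dKO and 10, 38.4, 28.4 and 61.4 RPKM in control. Its difference from control was -3.82 in dKO_Flt3ITD (SE 0.86, adjusted p 0.0342) and -3.86 in dKO (SE 0.86, adjusted p 0.0379). Without single libraries the adjusted p was 0.0127 to 0.115 in dKO_Flt3ITD and 0.00558 to 0.122 in dKO, and it stayed below 0.05 only without control 1 or dKO_Flt3ITD 4 in the first and only without control 1 or dKO 2 in the second. Both calls were also lost with pseudocounts of 0.1 and 0.5, with no filter and with voom, where the adjusted p was 0.140 in dKO_Flt3ITD and 0.243 in dKO. Ctsw reached the filter only through its control libraries.

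**Figure D5:**
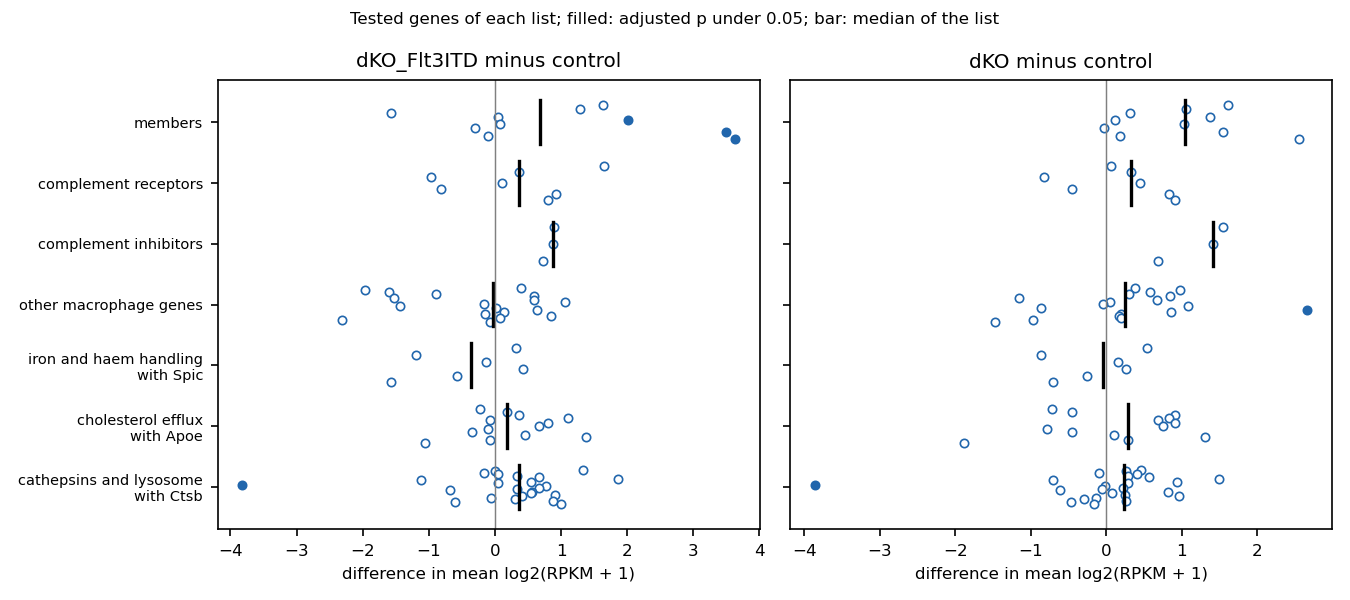
Difference in mean log2(RPKM + 1) of each tested gene, in 7 of the lists, for dKO_Flt3ITD minus control and dKO minus control; filled points have an adjusted p under 0.05 and bars mark list medians. The row named members holds the 10 genes, with medians of 0.68 and 1.04, and the other filled points drawn are Mrc1 among other macrophage genes and Ctsw among the cathepsins.

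Markers of other cells were listed beside these genes. Of 16 granulocyte and monocyte markers 8 were in the table, and their summed level was 71.0 to 1360 RPKM in dKO_Flt3ITD, 48.6 to 145 RPKM in dKO and 77.1 to 249 RPKM in control. Of the 6 tested, Ctsg, a protease of granulocyte precursors, was called in dKO_Flt3ITD against control, at 184, 42.6, 15.3 and 218 RPKM in dKO_Flt3ITD libraries, against 19.7, 20.4, 14.4 and 8.95 RPKM in dKO and 0.442, 5.76, 13.7 and 8.12 RPKM in control (difference 3.61, SE 0.77, adjusted p 0.0247). The Ctsg call was lost without control 1 (0.0691), control 2 (0.0515), dKO_Flt3ITD 1 (0.0975) or dKO_Flt3ITD 4 (0.0625), and also with a pseudocount of 0.1 (0.0523), no filter (0.0848), only the 8 libraries compared (0.0539), the replicate number as a block (0.0604) and voom (0.222). Elane, a neutrophil granule protease that did not pass the filter, was highest in dKO_Flt3ITD 4 and dKO_Flt3ITD 1, at 105 and 8.78 RPKM. These libraries had the highest Emr1. Of the same list, Prtn3 and Ly6c2 were also highest there, while Csf3r and Ccr2 were highest in dKO_Flt3ITD 3, at 33.4 and 17.6 RPKM. Mpo was highest in dKO_Flt3ITD 4, at 721 RPKM, but at 56.5 RPKM in dKO_Flt3ITD 1 it lay below the control range of 66 to 230 RPKM. Ltf was highest in control 4, at 13.1 RPKM, and was 0 in dKO_Flt3ITD 1. Of 14 dendritic cell markers 12 were in the table, with a summed level of 311 to 2600 RPKM in dKO_Flt3ITD, 278 to 516 RPKM in dKO and 195 to 809 RPKM in control. The 24 other macrophage genes in the table summed to 392 to 1950 RPKM in dKO_Flt3ITD, 656 to 1220 RPKM in dKO and 884 to 1270 RPKM in control. The macrophage genes Mertk, Cd14, Fcgr1 and Siglec1 are not analysed here, and Timd4, a receptor of resident macrophages, stayed at or below 0.534 RPKM in every library. Few markers of other cells were in the table: 4 of 9 for B cells, 6 of 9 for natural killer and innate lymphoid cells, 7 of 14 for thymic stroma and 3 of 11 for erythroid cells and megakaryocytes. Of these 1, 3, 4 and 1 were tested, in that order, and none was called in any comparison. So few tested genes say little about these cells. The part of such cells in the levels of C2, Emr1 and Spic was not tested.

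The early thymic progenitor genes summed to 479 to 693 RPKM in dKO_Flt3ITD, 648 to 732 RPKM in dKO and 1110 to 1950 RPKM in control. Without Dntt the other 14 genes summed to 468 to 606 RPKM in dKO_Flt3ITD, 529 to 657 RPKM in dKO and 572 to 720 RPKM in control, and the groups overlapped. Of the 15 genes, Tcf7, a T-lineage transcription factor, fell in both deleted groups, and Ccr9 and Dntt, a homing receptor and a DNA polymerase of lymphoid progenitors, fell in dKO_Flt3ITD against control. The differences in dKO_Flt3ITD were -3.68 for Tcf7 (adjusted p 0.00283), -3.26 for Ccr9 (0.00543) and -6.32 for Dntt (0.000564), and that of Tcf7 in dKO was -3.89 (adjusted p 0.00232). Dntt was also lower in dKO, at 75 to 137 RPKM against 389 to 1380 RPKM in control, but was not called. Its difference there was -3.14 (limma adjusted p 0.0982), and that of Ccr9 was -2.05 (limma adjusted p 0.111). Ly6d, a lymphoid surface protein from the dendritic cell list, also fell, by 5.89 in dKO_Flt3ITD (adjusted p 0.000657) and by 5.35 in dKO (adjusted p 0.00203). Of all tested genes 0.505% were called lower in dKO_Flt3ITD and 0.234% lower in dKO. With voom the calls of Tcf7 (adjusted p 0.130 in dKO_Flt3ITD and 0.199 in dKO), Ccr9 (0.0963) and Ly6d (0.154 in dKO_Flt3ITD and 0.353 in dKO) were lost, and these 3 genes reached the filter only through their control libraries. C2, Emr1 and Spic were called higher, and Tcf7, Ccr9, Dntt and Ly6d lower, between dKO_Flt3ITD and control. Both sets are set side by side for those calls, so their opposite directions follow from that choice. They were not tested against each other. Nothing in the labels says whether libraries of a group came from separate mice, so the p-values measure the spread between libraries, which may be technical.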

How the data were processed

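Libraries of 100 sorted cells each were made as full-length messenger RNA, per the labels' protocols. The authors deposited 1 table of RPKM for 13016 genes and 12 libraries. TopHat2 2.0.10, SAMtools 0.1.19, HTSeq 0.5.4p5 and the build mm10 are named in the submitters' processing notes. The strand setting and the divisor of the RPKM are not stated in the labels or file header. Low RPKM values were whole multiples of the value of 1 read for 99.96% of genes, with a tolerance of 0.001, which gave 12924981 to 32763597 reads a library.

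A gene was tested where 4 or more of the 12 libraries reached 1 RPKM. This kept 10690 genes, among them all 10 described. Group means of log2(RPKM + 1) were compared with limma 3.58.1 (R 4.3.3), trend included, in a joint model of the 12 libraries with 9 residual degrees of freedom. P-values were adjusted by Benjamini-Hochberg over all tested genes, and 0.05 was the threshold. Differences of low genes are understated on this scale. Alternatives were other pseudocounts, filters and scalings, array weights, no trend, a replicate term, a fit of the 8 compared libraries alone, voom on the recovered reads and libraries left out. In fits of fewer libraries the filter stayed that of all 12 libraries. Steps were checked on simulated data. No 2 replicates agreed within counting noise.

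The genes and lists were chosen with earlier results of these data known. Named are all 10 genes, and called genes of each list or up to 2 of its most abundant ones. Also named are the 3 genes most like a given gene, predicted-gene and clone symbols left out. 1 of these like genes is not reported here. C3, C1ra, Vcam1, Elane, Timd4, Cd59b, Csf1r, Tyrobp, Kit, Lyz1, Zbtb12 and Fdft1 were named outside this rule, after their values were seen. So were Prtn3, Ly6c2, Csf3r, Ccr2, Mpo and Ltf. Gene coordinates are those of GENCODE release 21 for GRCm38, the assembly of mm10. Emr1 was matched as Adgre1. Python 3.11.15, numpy 2.4.6, pandas 2.3.3 and matplotlib 3.10.9 were used outside R.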

Additional observations from a re-analysis of the deposited data

Results flagged for a closer look

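A single library stood apart from the other 3 of its group for 7 of the 10 genes, in 10 of 29 sets of 4 libraries. Chance sets about 1 in 20 apart for evenly varying values, but a set with 3 libraries at 0 and 1 above it is always set apart, so the counts cannot be compared. In dKO_Flt3ITD 1 this held for Spic at 66.9 RPKM, Cd68 at 35.2 RPKM and Lyz2 at 337 RPKM, with the next libraries at 18.0, 6.43 and 93.3 RPKM. In dKO_Flt3ITD 4 C1qc measured 2.54 RPKM, with the next at 0.307 RPKM. In dKO 3 C2 measured 0.348 RPKM, with the other dKO libraries at 0. Control 1 stood low for Apoe at 0.295 RPKM and for Lyz2 at 46.4 RPKM, with the next at 11.4 and 150 RPKM. Control 3 stood high for Spic at 11.1 RPKM and C1qc at 3.04 RPKM, with the next at 0.0274 and 0.035 RPKM, and control 2 was the only control with C1qa, at 0.278 RPKM.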

How the results depend on the processing

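Of 621 alternative values of the 10 genes over 25 settings, 555 kept their direction and side of the threshold, 32 lost a call, 1 gained one and 33 changed sign. Genes of the 10 called between dKO_Flt3ITD and control, 3 in all, numbered 1 with a pseudocount of 5, no filter, no trend, array weights or voom (C2 each time), 1 with a filter of 5 RPKM or only the 8 libraries compared (Spic), 0 without control 1, dKO 1 and dKO_Flt3ITD 1 together, and 1 to 2 without single libraries. Over all genes, 109 were called between dKO and control, and 64 with no filter, 210 with array weights, 5 with voom, 45 without the 3 libraries, and 58 to 95 without single libraries. Between dKO_Flt3ITD and control 160 were called, and 91 with no filter, 27 with voom, 105 without the 3 libraries, and 94 to 187 without single libraries. Between dKO_Flt3ITD and dKO 0 were called, and 3 with a pseudocount of 5, 2 with equal sums or array weights, 1 with no filter (C2), a filter of 5 RPKM, median ratio scaling, only the 8 libraries or without the 3 libraries, and 0 to 6 without single libraries.

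Same replicate numbers did not pair the libraries: 2 of 12 same-number pairs had a correlation over 0.1 and 2 of 12 libraries correlated best with their own number. With the replicate number as a block, 85, 116 and 0 genes were called in the 3 comparisons, and of the 10 genes 1, C2.

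Signs changed for differences near 0. For dKO against control, Lyz2 was -0.087 with array weights and -0.41 without the 3 libraries, and without single libraries Lyz2 ranged from -0.26 to 0.40, C1qb from -0.54 to 1.24 and Ctsb from -0.36 to 0.25. For dKO_Flt3ITD against control, C1qc was -0.0042 with a pseudocount of 5 and -0.12 with array weights, Cd68 -0.19 with equal sums and -0.42 without the 3 libraries, and without single libraries C1qc ranged from -0.39 to 0.54, Cd68 from -0.62 to 0.42 and Lyz2 from -0.64 to 0.29. For dKO_Flt3ITD against dKO, C1qa was -0.048 with voom and Apoe -0.078 with equal sums, and without single libraries C1qa ranged from -0.23 to 0.70, Apoe from -0.68 to 0.66 and Lyz2 from -0.81 to 0.12. The causes were not tested. In control, the values of C2, Emr1 and C1qa rest on 6 reads or fewer a library, and the reason was not tested.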
